A study of Mus musculus with 4 samples.

Results

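Single cells of the prefrontal cortex (PFC) of female C57BL/6J mice were profiled at postnatal days 1, 4 and 10 (P1, P4 and P10) and in adult mice at day 84, and the cells described here are the ones that a rule on 11 genes picks out as layer 5 near-projecting (L5 NP) neurons marked by Tshz2. Each age was 1 library made on the BD Rhapsody microwell platform, with no treatment named in the labels, and the study's methods state 2 mice per age. Cells were not assigned to a mouse, so each age counted as 1 sample and no p-value is given. Of 63394 barcodes, 59918 cells had at least 1000 unique molecular identifiers (UMIs, each counting 1 captured mRNA molecule), at least 1000 genes and at most 15% of UMIs from mitochondrial genes, and 321 of these met the rule.

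The rule asked for at least 1 UMI of Neurod2 or Neurod6 (glutamatergic neurons), fewer than 1 UMI of Gad1 and Gad2 per 10000 (not GABAergic), at least 2 UMIs of Tshz2 per 10000, at least 1 UMI each of Etv1 and Tle4, fewer than 3 UMIs of Foxp2, Syt6 and Hs3st4 together per 10000 (genes of layer 6 corticothalamic neurons) and no UMI of Ctgf (a layer 6b gene). The 321 cells, called Tshz2-rule cells below, therefore differ from other neurons in these 11 genes by construction. The P1 library held 21 of them among 11545 cells, P4 172 among 19014, P10 54 among 15272 and adult 74 among 14087. As shares these were 0.182% (exact binomial 95% interval 0.113 to 0.278), 0.905% (0.775 to 1.05), 0.354% (0.266 to 0.461) and 0.525% (0.413 to 0.659). In another setting, cells with fewer than 5000 UMIs were left out and the rest thinned to 5000 UMIs before the rule was applied. The shares, now over these deeper cells alone, were 0.291%, 0.879%, 0.989% and 1.27%. The order of the last 3 ages thus changed with the depth limit and thinning together, and is not read as a change in number. All intervals here cover counting error only, not differences between mice or dissociations. Those of levels and ratios are on UMIs summed over cells and leave out the spread between cells as well.

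Near-projecting neurons are deep-layer glutamatergic neurons whose axons stay mostly close to the cell body, unlike pyramidal tract (PT) neurons of layer 5, which reach the brainstem and spinal cord, and corticothalamic (CT) neurons of layer 6. They are known for Tshz2, a zinc-finger homeobox gene, and for receptor and transporter genes such as Htr2c, Trhr and Slc17a8 that few other cortical projection neurons use. Etv1, an ETS transcription factor gene, is shared with layer 5 neurons, and Tle4, a Groucho corepressor gene, with layer 6 neurons. In the GENCODE M21 annotation of GRCm38, Tshz2 lies on the forward strand of chromosome 2 from 169633013 to 170071816, Htr2c on the forward strand of the X chromosome from 146962513 to 147197277, and Slc17a8 on the reverse strand of chromosome 10 from 89574020 to 89621253.

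The 4 libraries differed in depth, and the Tshz2-rule cells with them. From the youngest library to the oldest, their medians were 31069, 12150, 16558 and 11876.5 UMIs and 6430, 4349, 4961.5 and 4149.5 genes per cell, against medians of 27778, 13926.5, 22283 and 18190 UMIs in all other glutamatergic neurons. The P1 library was also made with another bead version and a later pipeline version than the rest, so that at this step age and processing cannot be told apart. P1 shared 12 to 20 cell barcodes with each other library, and P4, P10 and adult shared 319 to 368 with one another. The doublet caller Scrublet marked 1 of 21, 31 of 172, 8 of 54 and 14 of 74 Tshz2-rule cells, which was 4.76%, 18.0%, 14.8% and 18.9% against 5.36%, 9.40%, 7.14% and 7.94% of all cells.

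To check the label, each library was clustered with the 11 genes of the rule left out, and the place of the Tshz2-rule cells was read off. At P4, P10 and in adult a cluster with Tshz2 as its leading gene was found, of 601, 440 and 649 cells, so that it was picked by a gene of the rule. Its 10 leading genes by fold included Lypd1, Trhr and Htr2c at all 3 ages, markers of L5 NP neurons that the rule did not use, and it is called the Tshz2-led, NP-like cluster. Of the Tshz2-rule cells it held 108 of 172 (P4), 32 of 54 (P10) and 49 of 74 (adult), or 189 of 300 (63%). The other 111 were spread over many clusters, and 21 of them at P4, 14 at P10 and 7 in adult sat in clusters with at least 2 listed markers of astrocytes, oligodendrocyte precursors, oligodendrocytes, microglia or endothelium among the 10 leading genes. A further 1, 2 and 1 sat in clusters with 1 such marker, 2 at P4 in a cluster led by Rgs5, Vtn and Abcc9, genes of mural cells of vessels, and 2 and 1 in adult in clusters led by the neutrophil gene S100a8 and the lymphocyte gene Ccl5. Scrublet marked 16 of 108, 2 of 32 and 5 of 49 Tshz2-rule cells inside the Tshz2-led cluster and 15 of 64, 6 of 22 and 9 of 25 outside it.

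**Figure D1:**
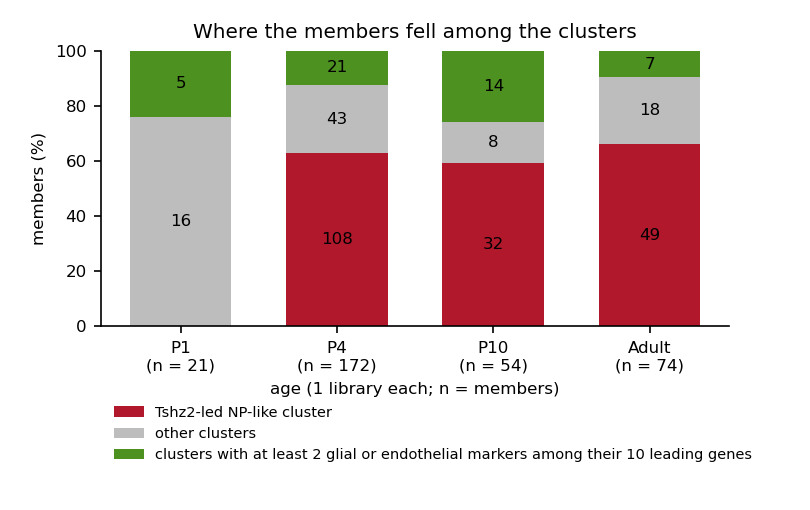
Percent of Tshz2-rule cells (y axis) at each age (x axis) by the cluster they fell into, as stacked bars with the number of cells printed in each: the Tshz2-led cluster, clusters with at least 2 glial or endothelial markers among their 10 leading genes, and other clusters. The Tshz2-led cluster held 62.8%, 59.3% and 66.2% from P4 on, and no such cluster was found at P1.

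At P1 no cluster was led by Tshz2, and the 21 Tshz2-rule cells fell into 10 of 26 clusters. Of these cells 4 sat in a cluster led by Pdgfra and Sox10, genes of oligodendrocyte precursors, 1 in an endothelial one, and 4 in a cluster of 445 cells whose leading genes mixed L5 NP and layer 6 names (Etv1, Tle4, Nts, Rprm, Spon1, Bcl11b, Syt6 and Tshz2). That cluster held 106 glutamatergic cells at the Tshz2 limit, the most of any P1 cluster. Its level of Tshz2 was 235 counts per 1000000 UMIs (CPM), with 5.58 CPM of Lypd1 and 0.811 CPM of Htr2c. A second cluster, of 311 cells led by Ctgf and with Nxph3 and Trhr among its leading genes, held 66 such cells and none that met the rule, with Tshz2 at 158, Lypd1 at 39.8, Htr2c at 7.57, Trhr at 86.2, Nxph3 at 286 and Ctgf at 238 CPM. At P1 the data therefore go against the label, and the P1 values below are those of 21 cells picked by the rule, not of an NP population.

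Sums of markers of other cell types mostly differed between the Tshz2-rule cells inside and outside the cluster. Summed over Pdgfra, Cspg4, Olig1 and Olig2, oligodendrocyte precursor markers reached 1452, 248, 672 and 78.5 CPM in the Tshz2-rule cells at P1, P4, P10 and adult, against 74.2, 123, 113 and 64.4 CPM in the other glutamatergic neurons outside the cluster. In the Tshz2-rule cells inside the cluster the same sum was 7.16, 8.74 and 11.0 CPM at P4, P10 and adult, with Pdgfra at 0, 0 and 1.84 CPM. Endothelial markers (Cldn5, Flt1 and Pecam1) showed the same split in adult, at 810 CPM outside the cluster and 36.8 CPM inside it. Microglia markers summed to 17.5 CPM inside against 288 outside at P10 and to 147 against 465 in adult. Oligodendrocyte markers were at 55.9 CPM inside and 453 outside at P10, and at 129 and 639 in adult. The other glutamatergic neurons had 1037 CPM of them in adult. No Tshz2-rule cell sat in a cluster with at least 2 oligodendrocyte markers leading at P10 or adult, or 2 microglia markers in adult. These sums thus did not always follow the placement. Astrocyte markers were less separated, at 1012 inside and 2232 outside at P10 and at 1929 and 2934 in adult, where the other glutamatergic neurons had 1416. Genes of this list did not move together. Slc1a3 was past 2-fold lower inside the cluster than in those neurons at P4, P10 and adult, so the sum is not read as astrocyte RNA. Comparisons with other neurons are therefore given mainly for the Tshz2-rule cells inside the cluster, and steps between ages for all Tshz2-rule cells with the counts inside the cluster beside them.

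The GABAergic markers outside the rule (Slc32a1, Dlx1, Dlx6os1, Lhx6 and Erbb4) summed to 16.7, 8.74 and 12.9 CPM inside the cluster at P4, P10 and adult, against 28.2, 13.7 and 12.5 CPM in the other glutamatergic neurons. At P1 the Tshz2-rule cells had 241 CPM against 66.0 CPM. The layer 6b markers outside the rule (Nxph4, Cplx3 and Moxd1) summed to 19.1 and 6.99 CPM inside the cluster at P4 and P10, and all 3 were at 0 in adult. Haemoglobin genes were lower than in the other glutamatergic neurons, at 14.3, 3.5 and 51.5 CPM inside the cluster against 124, 121 and 120 CPM outside it.

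The rule took a small part of the cluster, 18.0%, 7.27% and 7.55% of it from P4 on. The limit on Foxp2, Syt6 and Hs3st4 kept out the most cells at P4, 459 of 601 (76.4%), and 297 of 440 (67.5%) at P10 and 367 of 649 (56.5%) in adult. Ctgf, detected in 118 cells of the cluster at P4 (19.6%), was detected in 343 (78.0%) at P10 and in 469 (72.3%) in adult. Too little Tshz2 failed 62, 5 and 15 cells, the limit on Gad1 and Gad2 24, 11 and 96, no UMI of Tle4 6, 2 and 74, no UMI of Neurod2 or Neurod6 0, 0 and 37, and no UMI of Etv1 1, 1 and 4, where a cell can fail more than 1 condition. Of the cells that failed the layer 6 limit alone, 295, 59 and 75, the gene Hs3st4 by itself was past the limit in 220, 49 and 58. Hs3st4, which encodes a heparan sulfate sulfotransferase, stood at 414, 382 and 321 CPM over the whole cluster. The Tshz2-rule cells inside it had 167, 163 and 143 CPM, and cells of a layer 6 CT rule 570, 647 and 612 CPM. Hs3st4 is a gene of both rules, so the low and the high values were set by selection and their order is not a result.

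**Figure D2:**
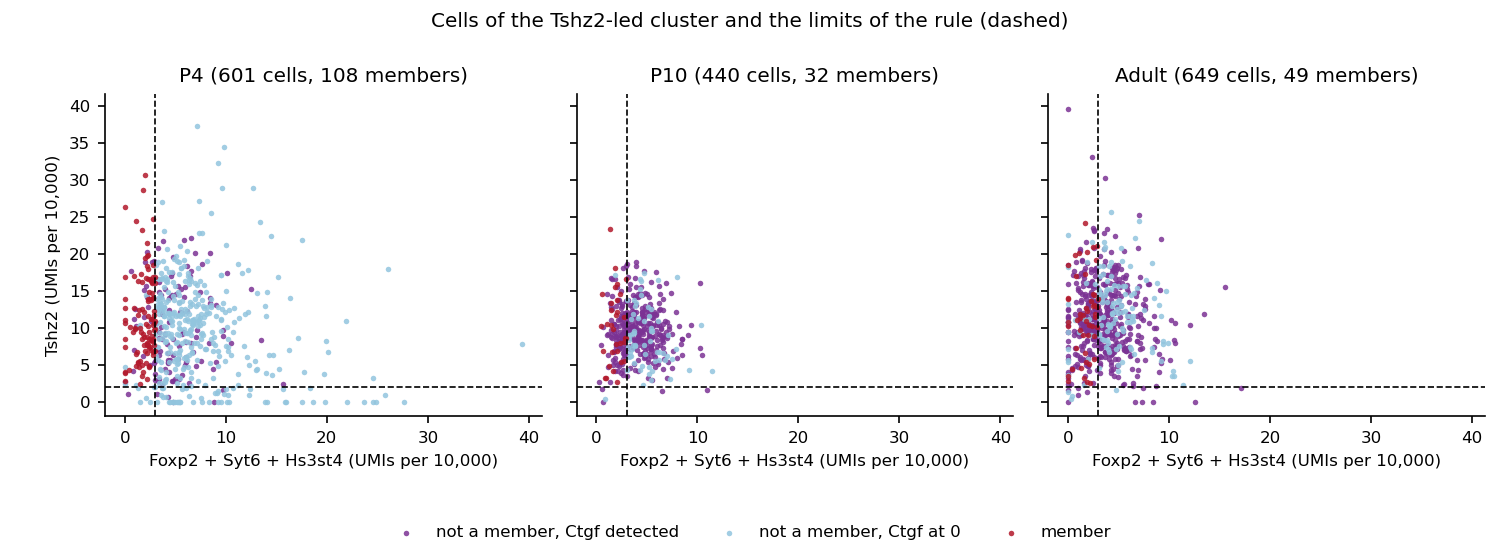
Each point is 1 cell of the Tshz2-led cluster at P4, P10 or adult (panels), by its UMIs of Foxp2, Syt6 and Hs3st4 per 10000 and its UMIs of Tshz2 per 10000, with dashed lines at the rule's limits of 3 and 2. Red points met the rule, purple points had Ctgf detected and blue points did not, and most cells of the cluster lie beyond the layer 6 limit or had Ctgf.

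At the Tshz2 limit the cells were mostly not NP-like by cluster. Of the Tshz2-rule cells with 2 to 3 UMIs of Tshz2 per 10000, 2 of 29, 1 of 10 and 3 of 15 were in the cluster at the 3 ages from P4 on, and of cells just below, with 1 to 2 UMIs and all else met, 2 of 32, 0 of 18 and 0 of 15. At the layer 6 limit both sides were mostly in it. Of Tshz2-rule cells with 2 to 3 UMIs of Foxp2, Syt6 and Hs3st4 per 10000, 62 of 72, 13 of 21 and 20 of 25 were in the cluster, and of those just past the limit, at 3 to 4, 56 of 63, 21 of 25 and 25 of 29.

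Tshz2 itself, the gene that chose the cells, varied widely among them. Per 10000 UMIs it ran from 2.01 to 9.46 with a median of 2.65 at P1, from 2.02 to 30.7 with a median of 8.28 at P4, from 2.02 to 23.4 with a median of 5.81 at P10, and from 2.02 to 24.1 with a median of 9.93 in adult. Inside the cluster the medians were 10.2, 10.1 and 11.5 at P4, P10 and adult, and outside it 3.24, 3.34 and 3.11. Summed over the Tshz2-rule cells, Tshz2 stood at 376, 867, 870 and 860 CPM, Etv1 at 406, 1178, 1762 and 1424 CPM, and Tle4 at 368, 463, 546 and 333 CPM.

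The 10 L5 NP markers that the rule did not use showed how far the Tshz2-rule cells carry the NP program. The median number detected per cell was 2, 4, 6.5 and 8 in the order of age, and inside the cluster 6, 7 and 8. Of the markers that could be compared with the other glutamatergic neurons, 7 of 9, 6 of 9 and 10 of 10 were at least 2-fold higher from P4 on and none was 2-fold lower. Among all genes 1.41%, 4.52% and 3.48% were at least 2-fold higher and 0.799%, 3.42% and 2.79% lower, with at least 20 CPM in the higher group and at least 10 UMIs in both together. At P1 it was 2 of 5, Lypd1 and Spon1, beside 6.36% of all genes higher and 1.75% lower. The median log2 ratio of the markers was 0.35, 1.61, 1.76 and 2.49 in the order of age, where the median over all genes was between 0.02 and 0.04. The P1 value turned to -1.48 without the need for Etv1 and Tle4 and was 1.5 after thinning to 5000 UMIs, so no direction is read from it. These are descriptions of cells chosen for correlated genes, not tests.

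Lypd1, which encodes a membrane-anchored protein of the Ly6 family that binds nicotinic acetylcholine receptors, was the NP marker at least 2-fold higher in all 4 libraries. Its level was 47.7, 368, 885 and 990 CPM in the Tshz2-rule cells from P1 to adult, and 594, 1085 and 1390 CPM inside the cluster at the last 3 ages. The other glutamatergic neurons outside the cluster had 14.2, 31.0, 121 and 164 CPM. Inside the cluster Lypd1 was thus 19.2-fold (log2 4.26, 95% interval 4.15 to 4.37), 8.98-fold (3.17, 3.05 to 3.28) and 8.45-fold (3.08, 2.97 to 3.18) higher at P4, P10 and adult.

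Htr2c, the gene of the serotonin 2C receptor, and Trhr, that of the receptor for thyrotropin-releasing hormone, were also higher in the cells from P4 on. Htr2c was at 0 in the 21 cells of P1, then at 61.8, 175 and 367 CPM in the Tshz2-rule cells and at 93.1, 231 and 491 CPM inside the cluster, while the other glutamatergic neurons were lower, at 1.40, 2.33, 12.9 and 16.6 CPM, with higher values at each later age as well. The step from P4 to P10 was 2.84-fold (log2 1.51, 1.16 to 1.85) and that from P10 to adult 2.09-fold (1.07, 0.78 to 1.36). Trhr stood at 7.22, 74.1, 114 and 153 CPM against 6.15, 9.44, 10.6 and 10.5 CPM, with 111, 145 and 212 CPM inside the cluster. Both genes were detected in the Tshz2-rule cells inside the cluster at P4 and had higher values there at each later age. The log2 step of Trhr from P4 to P10 in these cells, 0.38, had an interval from -0.03 to 0.78. Htr2c was past 2-fold lower in them at P10 than in the rest of the cluster. The 10 NP markers outside the rule summed to 3304 CPM at P10 and 4291 CPM in adult in these cells. In the rest of the cluster they summed to 4979 and 4823 CPM. Steps of these cells are therefore not read as steps of the whole cluster.

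Other NP markers came later or moved apart. Slc17a8, the gene of the vesicular glutamate transporter VGLUT3, was at 0, 36.4, 234 and 139 CPM, that is 6.44-fold higher at P10 than at P4 (log2 2.69, 2.31 to 3.07). In the other glutamatergic neurons it was 13.0 CPM at P4, 23.4 CPM at P10 and 1.42 CPM in adult, so that the fold inside the cluster was 4.54, 12.7 and 154 at P4, P10 and adult. Sla2, a Src-like adaptor gene, was at 0 UMIs inside the cluster at P4 and P10 and at 49.7 CPM in adult, at least 9.47-fold higher than at P10. Vwc2l, a secreted relative of the BMP antagonist brorin, was at 57.3 CPM inside the cluster at P4, 29.7 at P10 and 241 in adult. Its ratio to the other glutamatergic neurons was 5.01-fold at P4, 1.48-fold with an interval of the log2 ratio from -0.21 to 1.25 at P10, and 28.7-fold in adult. These are values of the Tshz2-rule cells, in which Vwc2l was past 2-fold lower at P10 than in the rest of the cluster.

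Nxph3, a secreted ligand of alpha-neurexins, was 3.30-, 2.59- and 9.51-fold higher inside the cluster than in the other glutamatergic neurons, at 173, 159 and 357 CPM. In layer 6 CT cells chosen by a rule on Foxp2, Syt6, Hs3st4 and Tle4 it was at 206, 217 and 161 CPM. In the Tshz2-rule cells inside the cluster it was thus 1.19- and 1.36-fold lower at P4 and P10 and 2.22-fold higher in adult. At P10 these cells were past 2-fold lower in Nxph3 than the rest of the cluster, so that order is not read for the whole cluster. Spon1, the matrix protein F-spondin and a marker named for these cells, was past 2-fold inside the cluster only in adult among P4, P10 and adult, at 410 against 112 CPM (log2 1.87, 1.68 to 2.07), with log2 ratios of 0.29 (-0.02 to 0.59) at P4 and 0.56 (0.23 to 0.87) at P10. Fezf2 and Bcl11b, transcription factor genes of layer 5 subcortical neurons, were highest at P4 inside the cluster, at 862 and 955 CPM, and at 522 and 399 CPM in adult. Both also stand in the list of 6 L5 PT markers, whose sum inside the cluster was 1896, 1232 and 943 CPM at P4, P10 and adult, against 596, 495 and 377 CPM in the other glutamatergic neurons. Of the other PT markers Pou3f1 was past 2-fold lower inside the cluster at all 3 ages and Npr3 at P10 and in adult, and none was higher.

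**Figure D3:**
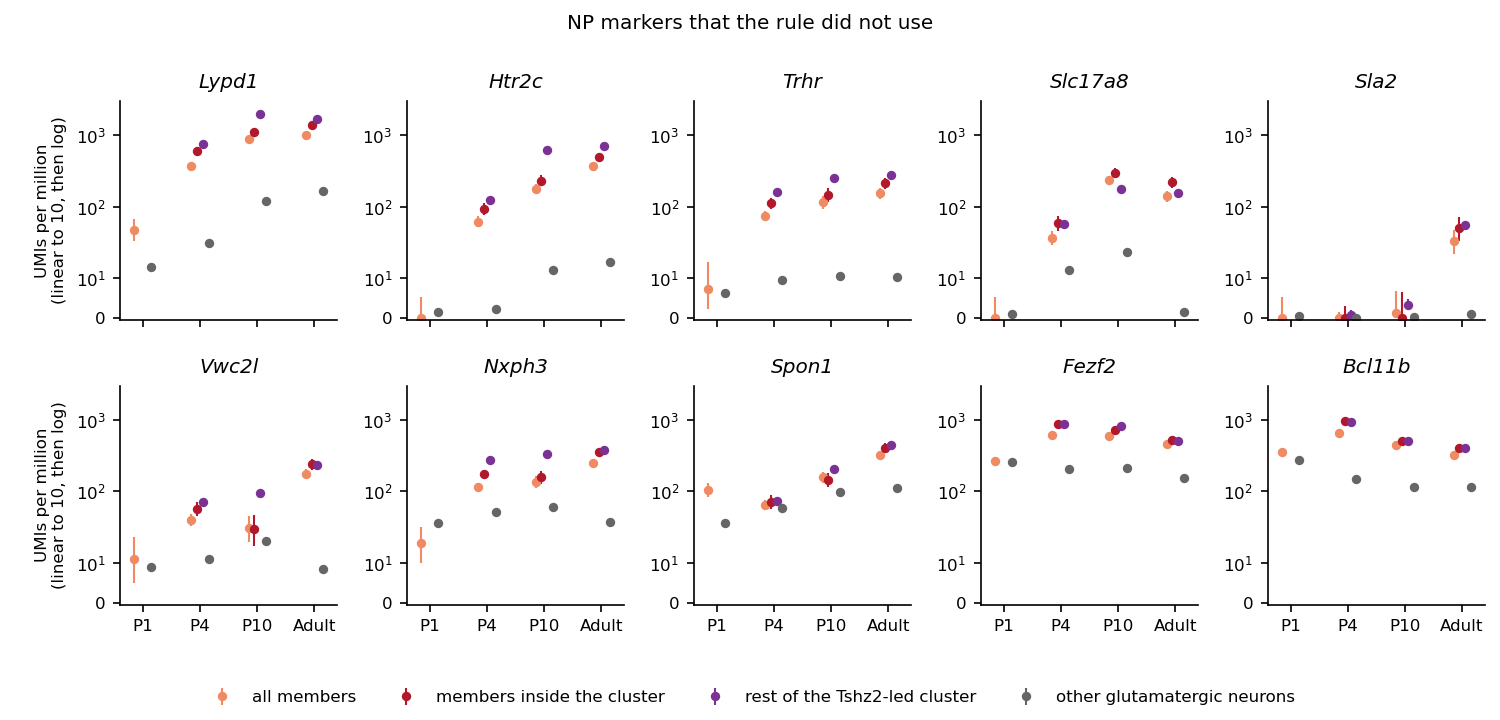
Levels of the 10 L5 NP markers outside the rule (panels) in CPM on a symmetric log axis at P1, P4, P10 and adult, with exact Poisson 95% intervals as bars, in all Tshz2-rule cells (members), in those inside the Tshz2-led cluster, in the rest of that cluster and in other glutamatergic neurons. Lypd1, Htr2c and Trhr lie above the other neurons from P4 on, Sla2 reaches 32.7 CPM in adult in the Tshz2-rule cells, and Spon1 overlaps at P4.

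Free RNA can give UMIs in cells that do not use a gene, so shares of cells were also set beside microglia with every cell thinned to 2000 UMIs, leaving out 17 of the adult microglia and 60 of the adult other glutamatergic neurons that were shallower. In adult, Lypd1 was detected in 77.0% of the 74 Tshz2-rule cells and in 93.9% of the 49 inside the cluster, against 5.79% of 984 microglia and 18.6% of 6596 other glutamatergic neurons. Htr2c was detected in 45.9% and 57.1% against 2.03% and 3.00%, and Slc17a8 in 20.3% and 30.6% against 0.407% and 0.303%. Without thinning, at medians of 11876.5 UMIs in the Tshz2-rule cells and 4266 in microglia, the shares were 93.2%, 78.4% and 45.9% for Lypd1, Htr2c and Slc17a8 and 12.4%, 3.4% and 0.999% in microglia. At P1 the thinned share was 1 of 21 cells for Lypd1 and 0 of 21 for Htr2c and Slc17a8, at which the upper end of the exact interval is 16.1%. Another draw of the same 21 cells gave 0 for Lypd1. Without thinning, at a median of 31069 UMIs, Lypd1 was detected in 28.6% of them.

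Beyond the markers, the Tshz2-rule cells inside the cluster were compared with the other glutamatergic neurons outside it, and with cells of a layer 6 CT rule (2491, 1720 and 674 cells at P4, P10 and adult) and of a layer 5 PT rule (1127, 626 and 521 cells). The CT rule took glutamatergic cells with at least 3 UMIs of Foxp2, Syt6 and Hs3st4 per 10000, Tle4 and no Ctgf, and the PT rule those with at least 2 UMIs of Bcl11b per 10000, Fezf2, the Tshz2 and layer 6 sums below their limits and no Ctgf, both outside the cluster. Since genes compared here, those outside the Tshz2 rule, were also open to the clustering, these are descriptions. Htr2c, Trhr, Lypd1, Slc17a8, Fezf2 and Bcl11b in the lists below are NP markers already given above. Cbln2, Olfm3 and Slc17a6 were among the leading genes of the cluster at some ages. List counts that hold these genes were thus partly set by how the cells were chosen. At least 2-fold differences were seen in 7.38%, 11.5% and 12.8% of genes against the other glutamatergic neurons, in 6.52%, 10.1% and 11.4% against the CT rule cells, and in 8.15%, 14% and 13.9% against the PT rule cells. In all of P4, P10 and adult, 82 of 6547 genes (1.25%) were at least 2-fold higher and 117 (1.79%) at least 2-fold lower than in the other glutamatergic neurons.

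Among 23 deep-layer transcription factor genes that could be compared in all 3 libraries, 6 were at least 2-fold higher in each (Fezf2, Bcl11b, Satb1, Tshz3, Hlf and Bcl11a) and 1 lower (Nfia). The shares over all genes were 1.25% higher and 1.79% lower. Satb1, a chromatin organizer, was at 404, 386 and 373 CPM inside the cluster against 125, 118 and 132 CPM outside it. Tshz3, a paralog of Tshz2, went from 4.6-fold at P4 to 2.05-fold in adult, at 384, 267 and 127 CPM. Hlf, a PAR bZIP factor, was at 92.3, 215 and 1447 CPM inside the cluster against 18.3, 70.8 and 513 CPM, so that both groups had more of it at each later age. Bcl11a, a paralog of Bcl11b, stood at 603, 467 and 250 CPM, 2.84-, 3.02- and 2.23-fold above the other glutamatergic neurons. Nfia, a nuclear factor I gene, was lower by 2.93-, 2.43- and 2.23-fold, at 32.6, 26.2 and 22.1 CPM.

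Among the transporters that load glutamate into vesicles, Slc17a6 and Slc17a8 were higher in these cells and Slc17a7 was not. Slc17a6, the gene of VGLUT2, was at 187, 584 and 550 CPM inside the cluster and at 78.0, 80.6 and 31.6 CPM in the other glutamatergic neurons. The ratio was 2.40-fold at P4 (log2 1.26, 1.07 to 1.45), 7.25-fold at P10 (2.86, 2.70 to 3.01) and 17.4-fold in adult (4.12, 3.95 to 4.29), and against the PT rule cells it was 2.88-, 7.59- and 22.4-fold. Slc17a7, the gene of VGLUT1, was at 158, 717 and 1641 CPM, lower than in the other glutamatergic neurons by 1.31-, 1.61- and 1.25-fold, and thus under 2-fold at each age. From P4 to P10 Slc17a6 was 3.22-fold and Slc17a7 4.14-fold higher in the Tshz2-rule cells. From P10 to adult Slc17a7 was again 2.23-fold higher and Slc17a6 1.26-fold lower. Of 23 genes of vesicular transport and release, only Slc17a6 and Slc17a8 were past 2-fold higher in all 3 libraries, beside 1.25% of all genes.

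Several glutamate receptor genes stood apart from the other glutamatergic neurons. Of 18 ionotropic receptor genes and auxiliary subunits compared in all 3 libraries, Grik1, Grik3 and Neto2 were at least 2-fold higher in each and Neto1 at least 2-fold lower. Over all genes these shares were 1.25% and 1.79%. Grik1, the kainate subunit GluK1, was at 28.7, 64.7 and 60.7 CPM inside the cluster and at 2.11, 1.94 and 1.23 CPM outside it, a ratio of 13.6-, 33.4- and 49.3-fold, and it was 13.9- to 48.4-fold over the CT rule cells and 16.9- to 120-fold over the PT rule cells. Grik3 was at 322, 301 and 272 CPM, 6.21-, 4.07- and 2.92-fold above the other glutamatergic neurons but 1.68- and 1.46-fold above the CT rule cells at P4 and P10, with a log2 ratio of 0.15 (-0.09 to 0.39) in adult. The auxiliary subunits went opposite ways. Neto2 was at 1322, 1337 and 741 CPM against 345, 249 and 85.5 CPM, and Neto1 at 27.9, 28.0 and 23.9 CPM against 69.3, 140 and 116 CPM. Grm4, a group III metabotropic receptor gene and 1 of 7 in its list, was 3.74-, 5.12- and 7.35-fold higher.

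Grin3a, which encodes the NMDA receptor subunit GluN3A of young neurons, was 5.4-fold higher than in the other glutamatergic neurons at P4 and 3.30-fold at P10, at 480 and 486 CPM, and 1.93-fold higher at 131 CPM in adult. Grin2a, the GluN2A subunit, had a higher level at each later age, at 75.6, 184 and 487 CPM. Its ratio to the other glutamatergic neurons was lower at each later age, like that of Grin3a, at 2.54-, 1.64- and 1.22-fold. The step of Grin3a from P10 to adult was 3.72-fold lower inside the cluster (log2 -1.90, -2.29 to -1.52), and that of Grin2a 2.66-fold higher (1.41, 1.08 to 1.75).

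Of 13 genes of monoamine, acetylcholine and peptide receptors compared in all 3 libraries, Trhr and Htr2c were past 2-fold higher in each and Sstr2 lower. Over all genes these shares were 1.25% and 1.79%. Trhr and Htr2c are the NP markers given above and led the cluster, so this count adds nothing to them. Chrm2, the M2 muscarinic receptor gene, was at 14.3 CPM inside the cluster at P4, 36.7 at P10 and 224 in adult, 6.11-fold higher than at P10 (log2 2.61, 1.94 to 3.35), when the other glutamatergic neurons had 22.2, 17.7 and 26.9 CPM. Sstr2, a somatostatin receptor gene, was lower by 3.09-, 5.74- and 4.92-fold, at 14.3, 14.0 and 12.9 CPM. Of 10 GABA-A receptor genes Gabrg3 alone was past 2-fold higher in all 3 libraries, at 79.6, 159 and 180 CPM against 33.7, 67.1 and 67.8 CPM. Of 38 ion channel genes 1 was higher, Kcnk2, the potassium leak channel TREK-1, at 83.6, 234 and 197 CPM against 27.6, 48.7 and 39.8 CPM. Kcnd3, which encodes the A-type channel Kv4.3, was lower, by 2.25-, 5.10- and 4.65-fold. With 1 of 38 each way, 2.63%, the channel list lay near the 1.25% and 1.79% of all genes.

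Of 28 genes of synaptic organizers compared in all 3 libraries, Cbln2, Olfm3, Ptprt and Lypd1 were past 2-fold higher in each, and C1ql3 and Slitrk2 lower. Over all genes these shares were 1.25% and 1.79%. Cbln2, a secreted cerebellin that bridges neurexins to delta receptors, was at 485, 582 and 447 CPM against 94.3, 48.2 and 93.7 CPM, or 5.14-, 12.1- and 4.77-fold. Olfm3, an olfactomedin, was 2.78-, 9.23- and 6.69-fold higher, at 61.3, 302 and 528 CPM. Nxph1, a neurexophilin like Nxph3, did not separate the cells at P4 (8.75 against 8.78 CPM) and was 9.14-fold higher at P10 and 39.8-fold in adult, at 87.4 and 252 CPM. C1ql3, a C1q-like ligand, was lower than in the other glutamatergic neurons by 2.27-, 2.07- and 3.75-fold but higher than in the CT rule cells by 2.10-, 3.26- and 2.31-fold.

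Among 46 guidance and adhesion genes compared in all 3 libraries, 3 were past 2-fold higher in each (Sema5a, Cntn6 and Cntnap5a) and 5 lower (Sema3c, Epha4, Efnb2, Cdh10 and Cdh13). The shares over all genes were 1.25% higher and 1.79% lower. Sema5a, a transmembrane semaphorin, was at 191, 516 and 245 CPM, 3.86-, 4.65- and 2.01-fold higher, while against the CT rule cells it was 1.32-fold higher at P10 and 2.57-fold lower in adult. Cntn6, a contactin of the immunoglobulin family, was at 82.8, 75.2 and 68.0 CPM against 21.6, 23.7 and 10.3 CPM. Cdh13, a GPI-anchored cadherin, was at 159, 87.4 and 82.8 CPM, 4.14-, 10.2- and 6.92-fold below the PT rule cells. Epha4, an ephrin receptor gene, was at 59.7, 138 and 75.4 CPM against 292, 415 and 392 CPM.

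**Figure D4:**
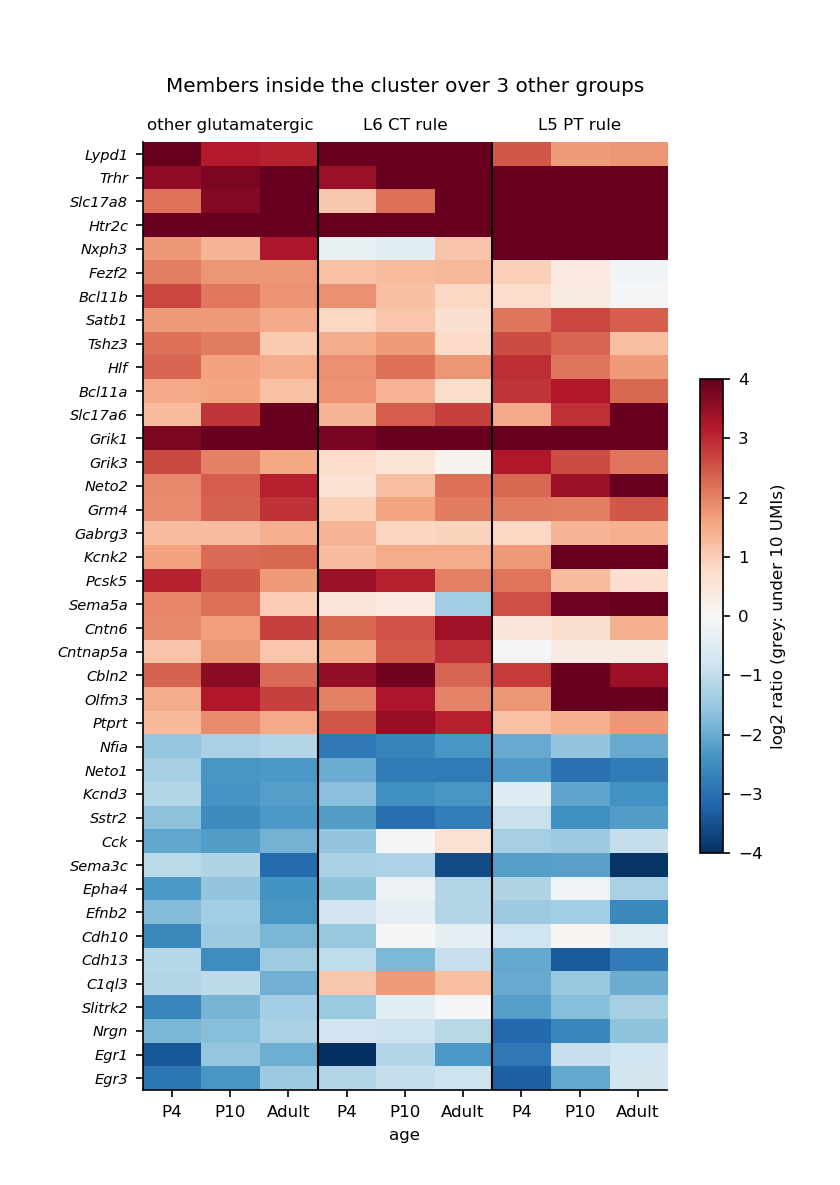
Log2 ratio (colour, limited at 4 either way, red higher and blue lower) of 40 listed genes in the Tshz2-rule cells inside the cluster over other glutamatergic neurons, layer 6 CT rule cells and layer 5 PT rule cells at P4, P10 and adult (columns). The genes drawn were past 2-fold in 1 direction over the other glutamatergic neurons at each of the 3 ages, so that block is uniform by choice, and Bcl11b and Fezf2 defined the PT rule and are not read there.

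Over all genes, listed or not, those named by a fixed rule as highest over the other glutamatergic neurons in all 4 libraries, P1 included, were Lypd1, Grik1, Cntn6, Zeb1, Pdgfra, Hlf, Rab27b, Efr3a, Grin3a and Crtac1. Pdgfra among them was at 0, 0 and 1.84 CPM inside the cluster at P4, P10 and adult and at 916 CPM in the 21 cells of P1. The part of the cells in glial clusters in its level was not tested. Efr3a, a membrane scaffold of a phosphatidylinositol kinase, was at 150, 206, 431 and 1121 CPM in the Tshz2-rule cells and at 82.6, 66.4, 102 and 319 CPM in the other glutamatergic neurons outside the cluster. Rab27b, a GTPase of secretory vesicles, was at 36.8, 78.5 and 128 CPM from P4 on, against 19.4, 36.6 and 53.7 CPM. Crtac1, a secreted matrix protein, was at 24.6, 60.5, 166 and 123 CPM against 14.4, 16.8, 32 and 47.8 CPM. Those lowest in all 4 were the haemoglobin genes Hba-a2, Hba-a1 and Hbb-bs and the growth factor genes Bmp3 and Fgf10. Bmp3 stood at 10.1, 10.2, 9.82 and 26.2 CPM against 27.5, 26.7, 52.4 and 117 CPM.

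By the same rule applied inside the cluster, the highest genes were Htr2c, Stard5, Grik1, Trhr, Lypd1, Tbata, Kremen1, Tox2, Nrsn2 and Il11ra1. Stard5, a sterol-binding START domain gene, was at 45.4, 42.0 and 40.5 CPM against 3.01, 2.01 and 1.72 CPM. Kremen1, a receptor for the WNT inhibitor Dkk1, was at 47.8, 97.9 and 223 CPM against 7.88, 10.6 and 16 CPM. Nrsn2, a neuronal vesicle membrane gene, was at 70.8, 161 and 495 CPM, 7.21-, 7.38- and 5.57-fold higher. Among the lowest were Slc1a3, Plpp3 and Mfge8, genes that astrocytes also express, and St6galnac5, a sialyltransferase gene, at 23.9, 40.2 and 36.8 CPM against 165, 226 and 222 CPM.

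Against the layer 6 CT rule cells alone the highest genes inside the cluster were Htr2c, Lypd1, Grik1, Stard5, Trhr and Pdzrn3, and the lowest Kit, Trbc2, Sulf1, B3gat1, Ppp1r1b and Arhgap25. Ppp1r1b, which encodes the dopamine-signalling protein DARPP-32, was at 10.3, 19.2 and 22.1 CPM against 126, 114 and 132 CPM, and Kit, a receptor tyrosine kinase gene, at 8.75, 10.5 and 1.84 CPM against 118, 161 and 115 CPM. Against the layer 5 PT rule cells the highest were Trhr, Htr2c, Nxph3, Tbata, Stard5 and Mcc, and the lowest included Pou3f1, a POU factor of layer 5 PT neurons, at 32.6, 6.99 and 12.9 CPM against 365, 278 and 249 CPM. Nrgn, the calmodulin-binding protein neurogranin, was lower than in the PT rule cells by 8.60-, 6.16- and 3.02-fold.

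Within the cluster few genes separated the cells that met the rule from those that did not. Between the Tshz2-rule cells and the other cells of the cluster, 0.484%, 2.51% and 1.98% of genes were past 2-fold at P4, P10 and adult, with only 32 cells on the smaller side at P10. The fixed rule named Epha4 and Cck among the genes higher in all 3, with Epha4 1.95-, 2.93- and 1.95-fold higher, and Cntnap4, Cntnap5b, Col25a1 and Efna5 among the lower ones. Cck, the cholecystokinin gene, was at 36.6, 157 and 362 CPM in the Tshz2-rule cells and 25, 77.6 and 208 CPM in the rest of the cluster. Col25a1, a transmembrane collagen gene, was at 21.5, 55.9 and 36.8 CPM against 66.5, 93.8 and 99 CPM. None of the NP markers was past 2-fold at P4 or in adult, and at P10 Htr2c, Vwc2l and Nxph3 were lower in the Tshz2-rule cells, Htr2c by 2.71-fold at 231 against 626 CPM. Among all genes 1.42% were past 2-fold lower at P10. The median log2 ratio of the NP markers was -0.33, -0.77 and -0.09 in the order of age. The Tshz2-rule cells inside the cluster and the rest of it had the same median number of NP markers detected at P4 and in adult, 6 and 8 of 10, with 7 against 8 at P10.

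Turning to age, 863 of 7908 genes (10.9%) were past 2-fold between P4 and P10 in the Tshz2-rule cells, 485 higher (6.13%) and 378 lower (4.78%), and 1748 of 8025 (21.8%) between P10 and adult, 853 higher (10.6%) and 895 lower (11.2%). In the other glutamatergic neurons outside the cluster 10.7% and 14.1% of genes passed. In the Tshz2-rule cells inside the cluster, a smaller group, it was 14% (6.5% higher and 7.48% lower) and 25.4% (12.8% higher and 12.6% lower), with 8.86% and 17% over the whole cluster. Each age is 1 library, so age and library cannot be told apart. Between P1 and P4 24.2% of genes passed, across the change of beads and pipeline and from 21 cells that were no NP population, and no gene is read from that step.

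Growth and immaturity genes were past 2-fold lower mainly at the step to adult. Of 20, 7 were past 2-fold lower and none higher at P10 than at P4, with a median log2 ratio of -0.63, and 19 of 20 were past 2-fold lower in adult than at P10, with a median of -2.38, where all genes had medians of -0.05 and -0.04. Among all genes 4.78% and 11.2% were past 2-fold lower at these steps, and 7.48% and 12.6% inside the cluster. Tubb2b, a tubulin of growing neurons, was at 3823, 4067, 1725 and 24 CPM from P1 to adult, 72.0-fold lower in adult than at P10. Dcx, doublecortin, was at 1713, 1817, 588 and 94.8 CPM, and Gap43, the growth cone protein, at 1751, 4206, 3398 and 902 CPM. Inside the cluster 5 of 20 were past 2-fold lower at P10 and the same 19 in adult, with medians of -0.50 and -2.49.

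**Figure D5:**
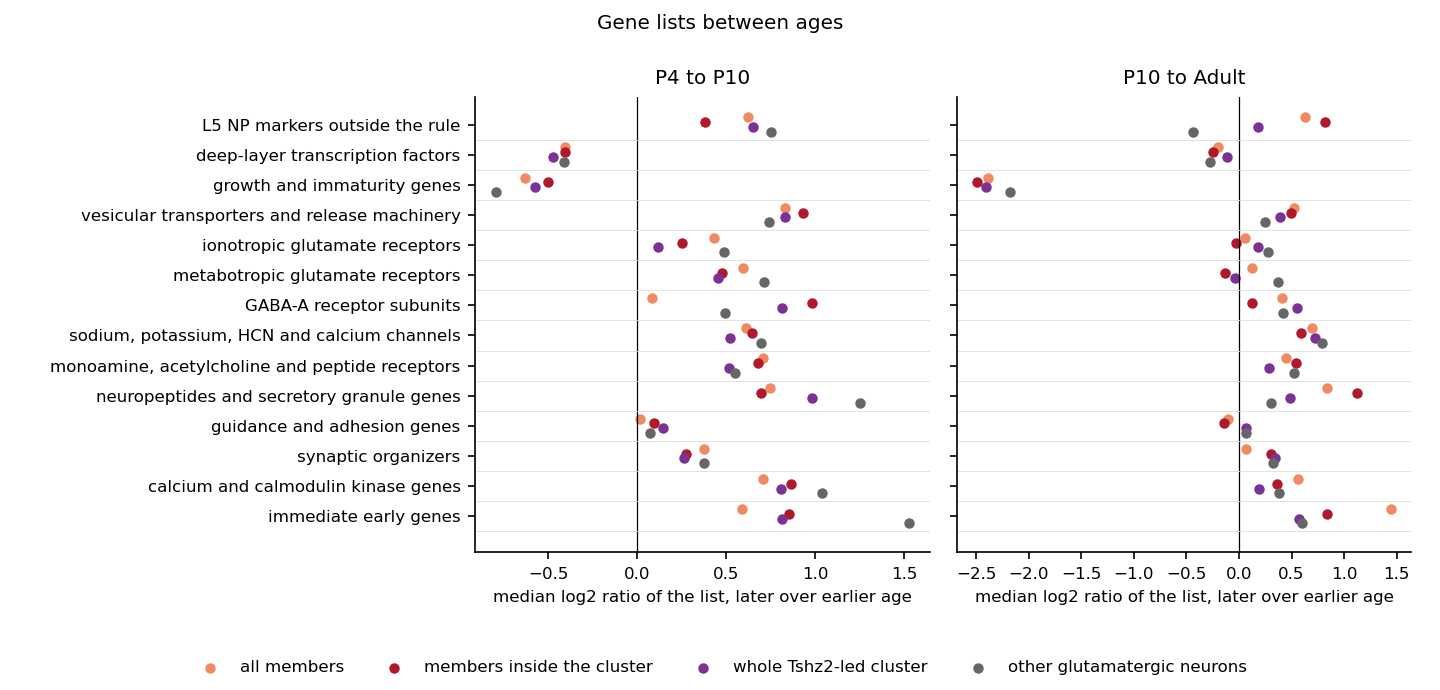
Median log2 ratio (x axis) of each gene list (y axis) for the steps P4 to P10 and P10 to adult (panels) in all Tshz2-rule cells, in those inside the Tshz2-led cluster, in the whole cluster and in other glutamatergic neurons. Growth and immaturity genes reach -2.38 in the Tshz2-rule cells from P10 to adult, and release machinery and ion channel genes lie above 0 at both steps.

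Among release machinery genes more were past 2-fold higher than lower at both steps. From P4 to P10, 9 of 24 genes were past 2-fold higher and none lower (median log2 0.83), and from P10 to adult 6 of 25 were higher and 2 lower (0.53). Inside the cluster it was 10 of 24 and none, then 6 of 25 and 2. Of all genes, 6.13% and 10.6% were higher at the 2 steps and 4.78% and 11.2% lower. For all genes inside the cluster, 6.5% and 12.8% were higher and 7.48% and 12.6% lower. Snap25, the SNARE protein of vesicle fusion, was at 732, 763, 1736 and 4586 CPM, 2.28-fold and 2.64-fold higher at the last 2 steps, and Syt1, the calcium sensor of release, at 364, 1240, 3039 and 4773 CPM. Inside the cluster Snap25 was at 721, 1921 and 4388 CPM from P4 on and Syt1 at 1312, 3312 and 5175 CPM. Sv2c and Cplx2 were the pair lower in adult. Sv2c, a vesicle glycoprotein gene, was at 8.89, 78.5 and 29.4 CPM at P4, P10 and adult, with 4.78, 105 and 38.6 CPM inside the cluster and 8.80, 14.4 and 7.12 CPM in the other glutamatergic neurons.

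Ion channel genes followed, with 12 of 43 past 2-fold higher and 1 lower from P4 to P10 (median log2 0.61) and 17 of 45 higher and none lower from P10 to adult (0.70). Inside the cluster it was 15 of 41 and 1, then 16 of 43 and 2. Beside these, 6.13% and 10.6% of all genes were higher and 4.78% and 11.2% lower. The shares of all genes inside the cluster were 6.5% and 12.8% higher and 7.48% and 12.6% lower. The adult set included the sodium channel genes Scn1a, Scn2b and Scn4b. Scn2b, an auxiliary subunit, was at 8.67, 9.74, 50.3 and 399 CPM, and at 9.55, 61.2 and 463 CPM inside the cluster from P4 on. Scn4b, the subunit of resurgent sodium current, was at 0 UMIs in the Tshz2-rule cells at P1, P4 and P10 and at 88.3 CPM in adult, at least 24-fold higher than at P10. It was at 25.8 CPM in the other glutamatergic neurons in adult. Kcna1, the potassium channel Kv1.1, was at 4.23, 22.1 and 83.9 CPM at P4, P10 and adult, with 4.78 and 24.5 CPM inside the cluster at P4 and P10.

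The next lists are set beside all genes, of which 6.13% were higher and 4.78% lower from P4 to P10, then 10.6% and 11.2%. Inside the cluster these shares were 6.5% and 7.48%, then 12.8% and 12.6%. Of ionotropic glutamate receptor genes 6 of 21 were past 2-fold higher and 1 lower from P4 to P10 (median log2 0.43), and 3 of 20 higher and 4 lower from P10 to adult (0.05), with 7 of 20 and none, then 4 of 20 and 3, inside the cluster. Of GABA-A receptor genes it was 5 of 11 and 2 of 10 higher, and inside the cluster 4 of 10 and 2 of 10, with none lower. At the step to adult the ionotropic and GABA-A counts lay within a few genes of the shares of all genes. Calcium and calmodulin kinase genes were higher in 5 of 18 at the step to P10 and in 6 of 19 at the step to adult, where 1 was lower, and inside the cluster in 7 of 18 and 5 of 19, with 1 lower again at the second step. Camk2a stood at 129, 225 and 655 CPM at P4, P10 and adult, with 129, 217 and 434 CPM inside the cluster. Receptors for monoamines, acetylcholine and peptides were higher in 4 of 15 and 7 of 19, with 1 and none lower, and inside the cluster in 3 of 12 and 8 of 19. Neuropeptide and secretory granule genes were higher in 6 of 15 at both steps, with 2 and 1 lower, and inside the cluster in 5 of 15 and 9 of 16, with 2 lower at each. Of synaptic organizers 5 of 29 and 3 of 30 were higher and 1 lower at each step, and inside the cluster 4 of 28 and 2 of 28 were higher and none and 2 lower. For synaptic organizers the shares higher at the step to adult were at or under the 10.6% and, inside the cluster, the 12.8% of all genes. Of guidance and adhesion genes 7 of 54 were higher and 4 lower, then 7 of 55 higher and 8 lower, near the 10.6% and 11.2% of all genes at the second step. Inside the cluster it was 12 of 52 and 6, then 6 of 53 and 11.

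Of 23 deep-layer transcription factor genes 6 were past 2-fold lower at P10 than at P4 and Hlf alone higher (median log2 -0.41), and from P10 to adult 3 of 23 were higher and 2 lower (-0.20). Inside the cluster 4 of 22 were lower and Hlf higher, then 2 of 21 higher and 2 lower. At the step to adult these counts lay near or under the shares of all genes, 10.6% and 11.2% in all Tshz2-rule cells and 12.8% and 12.6% inside the cluster. At the step to P10 the shares of all genes lower were 4.78% and, inside the cluster, 7.48%. Hlf stood at 74.1, 205 and 1168 CPM in the Tshz2-rule cells at P4, P10 and adult, 2.77-fold and 5.70-fold higher at each step. Tshz3 was 2.18-fold lower in adult than at P10 (log2 -1.13, -1.49 to -0.77), when Tshz2, which the rule holds up, stayed at 870 and 860 CPM. Immediate early genes were higher in 3 of 8 at the step to P10 and in 6 of 11 at the step to adult in all Tshz2-rule cells, and in 3 of 6, with Jun lower, and 2 of 9 inside the cluster. Of all genes 6.13% and 10.6% were higher at these steps, and 6.5% and 12.8% inside the cluster. Egr1, an activity-induced factor, was at 3.18, 83.9 and 151 CPM there and at 33.1, 243 and 585 CPM in the other glutamatergic neurons. According to the study's methods, slices were moved after sectioning into a buffer with actinomycin D, a transcription inhibitor, for dissection. The methods do not name it for the sectioning or the digestion.

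The largest single ratios were named by rule among genes with at least 100 CPM at the higher age. From P4 to P10 the highest ratios inside the cluster were those of Abi3bp, Sv2c, Klf9, Car10, Trhde and Sema3e, and the lowest those of St8sia2, Vcan, Cdh4, Mex3a, Ddah2 and Cnn3. Abi3bp, an extracellular matrix gene, went from 2.54 to 153 CPM in all Tshz2-rule cells and from 4.78 to 206 CPM inside the cluster, and was at 1.52 and 2.63 CPM in the other glutamatergic neurons outside the cluster. Sema3e, a secreted semaphorin, went from 11.4 to 120 CPM and reached 166 CPM in adult, against 5.71, 19.8 and 57.8 CPM. St8sia2, the polysialyltransferase of young neurons, went from 414 to 38.0 CPM and to 7.63 CPM in adult. Cdh4, R-cadherin, was at 157 CPM inside the cluster at P4, above the 50.9 CPM of the other glutamatergic neurons, and at 17.5 CPM at P10, below their 33 CPM.

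From P10 to adult the highest ratios inside the cluster were those of Cntnap1, Scn4b, Rcan2, Efhd2, Rasgrf1 and Oxr1, and the lowest included those of Tubb2b, Cxadr, Kif21b, Dpysl3 and Dpysl5. Cntnap1, the axonal protein of paranodes, went from 8.74 to 210 CPM (24-fold), and in the other glutamatergic neurons from 24 to 148 CPM. Rcan2, a calcineurin regulator, went from 24.5 to 379 CPM inside the cluster, 15.5-fold (log2 3.95, 3.17 to 4.85), and from 25.6 to 76.7 CPM in the other glutamatergic neurons. Over all Tshz2-rule cells the same rule also named Gfap and Selenop from P4 to P10, and Slco1a4, Ly6c1 and Flt1 from P10 to adult, genes of astrocytes and endothelium. None of these was among those named highest inside the cluster, and the part of the cells outside it in their ratios was not tested.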

How the data were processed

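Whole-transcriptome libraries of PFC cells were made on the BD Rhapsody platform, 1 per age. According to the study's methods, slices were placed in a buffer with actinomycin D after sectioning and before digestion. The authors deposited raw UMI counts per gene and cell. Per the file headers, the P1 counts came from version 1.11 of the BD Rhapsody WTA Analysis Pipeline, with Enhanced beads and intronic reads not excluded, and those of P4, P10 and adult from version 1.8. The P1 header gives that library another name, P0, and the label's age was used. The authors' deposited matrices carried no cell types used here.

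Cells were kept with at least 1000 UMIs, 1000 genes and at most 15% mitochondrial UMIs, and doublets were marked by Scrublet (expected rate 0.06) and kept. Each library was clustered with scanpy 1.11.5 and leidenalg 0.10.2 (2000 variable genes, 30 principal components, 20 neighbours, resolution 1.0, seed 1). The 11 genes of the Tshz2 rule and genes of mitochondria and ribosomal proteins were left out of the clustering, and the cluster was then picked by Tshz2. The NP markers outside the rule were open to the clustering, so values inside the Tshz2-led cluster are descriptions. Counts were summed over the cells of a group and scaled to counts per 1000000 UMIs (CPM), leaving out genes of mitochondria and ribosomal proteins. A level has an exact Poisson interval, a ratio of levels an exact conditional binomial one and a share a Clopper-Pearson one, all at 95%. Where a group had 0 UMIs, a fold was taken against 3 UMIs per group. A gene was past 2-fold with at least 20 CPM in the higher group and 10 UMIs over both, and the 11 genes of the Tshz2 rule were left out of these counts. Bcl11b and Fezf2, which define the PT rule, were left out where genes were named against PT rule cells. They stayed in the percentages of genes against those cells. With 1 library per age no test was run. Python 3.11.15, scipy 1.17.1 and numpy 2.4.6 were used.

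The members and all 25 gene lists were chosen with earlier results of these data known. Genes were named by the 10 highest and 5 lowest of the ratios that held in every library, by the 4 highest and 4 lowest against CT and PT rule cells, and by the 6 highest and 6 lowest at each step with at least 100 CPM. Applying this rule inside the cluster (there with 6 highest and 6 lowest against CT and PT rule cells), against the rest of the cluster, and to listed genes past 2-fold in each of 3 libraries was decided after values were seen, as were 3 of the 11 alternatives. On simulated counts 99.5% of changed genes were recovered for both steps after P4, and 0.715% and 2.11% of unchanged genes were called, over 7609 and 7603 genes. With 1 library per age the data give no spread between mice or dissociations, so these shares do not cover it. Genes of these rankings and lists that are not named are not reported here.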

Additional observations from a re-analysis of the deposited data

Results flagged for a closer look

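Vwc2l and Pou3f1 had opposite steps from P10 to adult in the Tshz2-rule cells and in the other glutamatergic neurons, and with 1 library per age these differences were not tested. Vwc2l had a log2 ratio of 2.51 (95% interval 1.89 to 3.18) in the Tshz2-rule cells, at 30.7 and 174 CPM, against -1.26 in the other glutamatergic neurons, at 20.1 and 8.39 CPM outside the cluster. In the Tshz2-rule cells inside the Tshz2-led cluster the ratio was 3.02. At P10 these were 32 of the 440 cells of the cluster, and Vwc2l was past 2-fold lower in them than in the rest of it. The step is therefore not read as one of the whole cluster. Pou3f1 had a log2 ratio of 2.37 (1.43 to 3.44) in the Tshz2-rule cells, at 13.5 and 69.7 CPM, against -1.18. Inside the cluster the Pou3f1 ratio was 0.88 with an interval from -1.10 to 3.10, at 6.99 and 12.9 CPM. The part of the cells outside the cluster in its value over all Tshz2-rule cells was not tested.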

How the results depend on the processing

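Of the values that summarise a comparison, 68 stayed within the counting error or 1.5 times the count reported, 68 moved further and 1 reversed, and of those for single genes and lists 296 stayed and 29 moved. Removing cells marked by Scrublet, a stricter cell filter, and CPM over all genes moved no summary value. No paired analysis was possible because each age had 1 library.

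Values below are given from P1 to adult where 4 stand together. Without the need for Etv1 and Tle4 the shares were 1.44%, 3.21%, 0.792% and 1.03%, and the NP marker medians (log2) were -1.48 at P1, the reversal, 0.49 at P4, 1.24 at P10 and 2.04 in adult. Genes past 2-fold numbered 234 at P1, 97 at P4 and 1168 at P10, with 981 from P1 to P4 and 1426 from P4 to P10. With Tshz2 at 4 per 10000 the shares were 0.0606%, 0.684%, 0.236% and 0.376%, the medians 1.84 at P4 and 3.02 in adult, and the genes 1296 at P1, 296 at P4 and 868 in adult. With shallower cells left out and the rest thinned to 5000 UMIs, the shares were 0.291% at P1, 0.989% at P10 and 1.27% in adult. The medians were then 1.5 at P1, 2.07 at P4 and 2.70 in adult, and the genes 408 at P1, 433 at P4 and 1243 from P1 to P4. A minimum of 50 CPM gave 226, 87, 298 and 232 genes, and 1089, 455 and 963 at the 3 steps. No CPM minimum gave 2997, 2166, 2971 and 2663 genes, 1610 at the P4 to P10 step and 2627 at the last one.

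The next 3 were chosen after seeing the data. Without Hs3st4 in the layer 6 limit the shares were 0.632%, 2.07%, 0.832% and 1.23%, the medians 1.87 at P1, 2.20 at P4 and 2.78 in adult, and the genes 343 at P1, 349 at P4 and 1251 from P1 to P4. Inside the Tshz2-led cluster alone the shares were 0.568%, 0.210% and 0.348% from P4 on, the medians 2.11 at P4 and 2.98 in adult, and the genes 536 and 906. The whole cluster gave shares of 3.16%, 2.88% and 4.61% from P4 on, medians of 2.60, 2.39 and 4.01, and 569 genes at P4 and 838 in adult. The cause of these moves was not tested, beyond the cells that each setting adds or removes. Of the list medians of both steps after P4, the sign held in all 9 settings except for guidance and adhesion genes at both steps (7 and 6 of 9) and, from P10 to adult, ionotropic (7 of 9) and metabotropic glutamate receptors (4 of 9). The 21, 54 and 74 cells of P1, P10 and adult limit what can be seen in genes of low level, and 1 library per age leaves age, mice and preparation together.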

Other observations

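Of 6 markers of intratelencephalic (IT) neurons, Cux2, Rorb and Slc30a3 were past 2-fold lower inside the cluster than in the other glutamatergic neurons outside it at P4, P10 and adult, while Meis2 at P10 and Cux1 in adult were past 2-fold higher. Over all genes 1.79% were past 2-fold lower at each of these ages. The sum of all 6 was 758, 1051 and 721 CPM inside the cluster against 996, 727 and 631 CPM. Rorb, a nuclear receptor gene of layer 4, was at 12.7, 0 and 1.84 CPM, and Slc30a3, which encodes the zinc transporter of glutamatergic vesicles, at 3.98, 38.5 and 44.1 CPM, lower by 8.19-, 4.50- and 4.34-fold. Pcp4, a calmodulin regulator of deep-layer neurons, was at 70.3, 261 and 323 CPM in the Tshz2-rule cells and at 96.3, 287 and 349 CPM inside the cluster. Pcsk5, a proprotein convertase gene, was at 133, 115 and 73.6 CPM inside the cluster against 15.9, 20.6 and 22.5 CPM. Tox2, an HMG-box gene, was at 20.7, 126 and 145 CPM against 3.03, 8.99 and 24.8 CPM.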
